A study of Homo sapiens with 2 samples.

Results

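The genes described here were 5 members of the renin-angiotensin system: AGT, ACE, AGTR1, AGTR2 and ATP6AP2. They were picked by symbol, and each symbol matched 1 of the 36601 genes in the count matrices. The choice was made with earlier results of these data in view, so their levels in the lineages are given as a description, without a test. The data came from 2 blood-generating heart-forming organoids (BG-HFOs), named 32.7 and 33.10, both examined at day 14. Both were grown from hES3 NKX2.5-eGFP, a human embryonic stem cell line with a green fluorescent reporter at the cardiac gene NKX2.5, so that both organoids are of 1 line and no untreated or mutant group exists. Both received the same treatment: aggregates were placed in Matrigel, WNT signalling was first raised and then lowered with small molecules (CHIR and IWP2), and growth factors and cytokines that favour vessels and blood were added, among them BMP4, bFGF, VEGF, SCF, EPO, IL-3, IL-6, IL-11, IGF-1, FLT3 ligand and SHH. Each organoid was dissociated on its own and made into 1 droplet library (10x Genomics 3′ chemistry), so n = 2 organoids throughout.

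The renin-angiotensin system regulates blood pressure and salt balance. AGT encodes angiotensinogen, the precursor protein that the liver releases into plasma. It is first cut to angiotensin I, and the membrane enzyme ACE, abundant on vessel walls, turns angiotensin I into angiotensin II. AGTR1 and AGTR2 encode the AT1 and AT2 receptors for that peptide. ATP6AP2 encodes a membrane receptor of the system that is also an accessory subunit of the vacuolar proton pump and is therefore made in most cells. The question asked of these genes was which lineages of the organoid held the precursor, the converting enzyme and the receptors.

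By the GENCODE v44 annotation of GRCh38, AGT (ENSG00000135744) lies on the minus strand of chromosome 1 from 230690776 to 230745576, where it overlaps COG2 on the other strand and 1 further gene of the matrix on its own strand. ACE (ENSG00000159640) lies on the plus strand of chromosome 17 from 63477061 to 63498380. AGTR1 (ENSG00000144891) lies on the plus strand of chromosome 3 from 148697784 to 148743008. AGTR2 (ENSG00000180772) spans 116170744 to 116174974 and ATP6AP2 (ENSG00000182220) spans 40579372 to 40606848, both on the plus strand of the X chromosome. No other gene of the matrix overlapped ACE, AGTR1, AGTR2 or ATP6AP2.

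The RefSeq promoter table (GRCh38.p14) held 4 of the 5 members, all except AGTR1. The 250 bases before a RefSeq start are shown for AGT and ACE, the precursor and the converting enzyme, and for ATP6AP2, which was read in every lineage of both organoids. The RefSeq starts of AGT and ATP6AP2 lie 31454 and 1598 bases inside the GENCODE spans given above, which begin further upstream. ACE has a pair of starts in the table, and the window shown is that of the start at the beginning of its span. Capitals mark TATAAA or its reverse complement TTTATA, the letters of a TATA box.
AGT, chr1:230714123-230714372, minus strand: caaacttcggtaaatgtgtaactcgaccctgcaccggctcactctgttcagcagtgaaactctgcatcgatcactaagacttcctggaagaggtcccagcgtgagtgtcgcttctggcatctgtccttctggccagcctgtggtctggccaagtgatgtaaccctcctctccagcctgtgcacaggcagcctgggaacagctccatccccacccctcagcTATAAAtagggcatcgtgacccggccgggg
ACE, chr17:63476811-63477060, plus strand: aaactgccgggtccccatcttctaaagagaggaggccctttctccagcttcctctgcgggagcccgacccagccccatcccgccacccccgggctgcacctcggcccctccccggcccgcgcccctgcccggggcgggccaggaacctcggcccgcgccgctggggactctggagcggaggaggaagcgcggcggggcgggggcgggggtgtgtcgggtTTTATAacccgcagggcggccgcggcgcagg
ATP6AP2, chrX:40580720-40580969, plus strand: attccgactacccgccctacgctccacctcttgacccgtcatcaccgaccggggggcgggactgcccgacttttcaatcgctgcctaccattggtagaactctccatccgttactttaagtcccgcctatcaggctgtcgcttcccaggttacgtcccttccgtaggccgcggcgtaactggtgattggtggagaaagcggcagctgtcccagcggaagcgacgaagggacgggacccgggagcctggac
The AGT window held 1 match, the ACE window shown held 1 match in the reverse orientation, and the ATP6AP2 window held 0. The other ACE window (chr17:63484596-63484845, plus strand), before a start 7785 bases inside the span, also held 0. Of all 35116 windows of this length in the table, 10.7% held the letters on either strand. The G and C content was 57.2% for AGT, 75.2% and 64.8% for the ACE windows and 61.6% for ATP6AP2.

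The libraries held 16866 and 19948 cell barcodes with 191152562 and 233818881 unique molecular identifiers (UMIs, each standing for 1 captured transcript), a median of 7842 and 8284.5 per barcode. A total of 100 barcode sequences occurred in both libraries. After the cell filter of the study (50 to 11000 genes and under 30% mitochondrial counts) 16792 and 19893 cells remained. Cells were assigned to 9 lineages by UMIs of lineage genes, none of them a member. The check genes that no gate used, such as TNNT2 and RYR2 for cardiomyocytes, PECAM1 and KDR for endothelial cells, SERPINA1 and FOXA2 for endoderm, CD68 for macrophages and KLF1 for erythroid cells, stood above the level of the whole library in their class in both organoids. That was not so for CD34 in the cells gated on MYB, PTPRC and SPN (24.9 and 18.9 CPM, that is UMIs per 1000000 UMIs of the class, against 48.8 and 42.2 CPM in the libraries), so these cells are called by their gate genes, although GFI1 and KCNK17 were raised there. The MYB, PTPRC and SPN gate counted only in cells that passed no erythroid, megakaryocyte, macrophage or granulocyte gate. Under this rule, cells that passed several lineage gates (2188 and 2625) or none (4407 and 4980) were kept apart. So were 15 and 21 cells that passed only the endothelial gate and the MYB, PTPRC and SPN gate.

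AGT was highest in the endoderm, the class gated on AFP, TTR, APOB, FGB, HNF4A and EPCAM, which are genes of liver and gut epithelium. Its level there, taken over the summed UMIs of the class, was 265 CPM in organoid 32.7 and 120.3 CPM in organoid 33.10, a mean of 192.7 ± 102.3 CPM (SD, n = 2). The endoderm consisted of 146 cells in organoid 32.7 and only 16 in organoid 33.10, where 35 AGT UMIs gave an exact Poisson 95% interval of 83.8 to 167.3 CPM. Both endoderm values nevertheless lay above every other lineage value.

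Cardiomyocytes were next in the order of AGT, with 11.4 and 9.07 CPM (10.2 ± 1.66 CPM), and their values did not overlap those of any other lineage. The mean of the endoderm was 18.8 times that of the cardiomyocytes, and the mean of the cardiomyocytes 4.34 times that of the stromal cells. Stromal cells (2.73 and 1.99 CPM), macrophages (1.18 and 2.40 CPM) and granulocytes (2.34 and 0.543 CPM) overlapped one another. Endothelial cells held 10 and 2 AGT UMIs among 2737 and 2823 cells, which made 0.28 and 0.0615 CPM. Erythroid cells held 0 AGT UMIs in both organoids among 493 and 1157 cells, and a count of 0 allowed levels of up to 0.291 and 0.174 CPM there.

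ACE was highest in macrophages, the class gated on CD14, C1QA, C1QB, CSF1R, MRC1 and CD163. It reached 10.4 CPM in organoid 32.7 and 9.38 CPM in organoid 33.10 (9.87 ± 0.691 CPM, SD, n = 2). Endothelial cells followed with 4.40 and 5.01 CPM (4.70 ± 0.435 CPM). The values of both lineages did not overlap each other, the macrophage mean being 2.10 times the endothelial mean, and the endothelial mean was 3.73 times that of the next lineage, the MYB, PTPRC and SPN-gated blood cells. All other lineages stayed at or below 1.68 CPM. The 16 endoderm cells of organoid 33.10 held 0 ACE UMIs, which allowed levels of up to 10.3 CPM, above the macrophage value of that organoid. In stromal cells ACE was at 0.404 and 0.281 CPM, and in erythroid cells at 0.194 and 0.289 CPM.

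Although the level per UMI was highest in macrophages, the endothelial cells, which were more numerous, held more of the ACE transcripts. They contributed 38.2% of the 411 ACE UMIs of organoid 32.7 and 45.5% of the 358 ACE UMIs of organoid 33.10. Macrophages contributed 21.4% and 12.0%. Among macrophages, a split made after the values had been seen gave 12.2 and 11.6 CPM in the 417 and 181 cells with at least 5 UMIs of the C1Q genes, complement genes of tissue macrophages, and 5.56 and 1.70 CPM in the 62 and 37 cells with at most 1 such UMI. The latter rested on 7 and 1 ACE UMIs.

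AGTR1, the AT1 receptor, shared its highest class with AGT. In the endoderm it reached 174.7 CPM in organoid 32.7 and 230.2 CPM in organoid 33.10 (202.4 ± 39.2 CPM, SD, n = 2), and this was 68.6 times the mean of the endothelial cells. A single endoderm cell held 31 of the 211 AGTR1 UMIs in organoid 32.7 and another 17 of the 67 in organoid 33.10. Without these cells the levels were 156.6 and 185.5 CPM. Endothelial cells (3.81 and 2.09 CPM) and stromal cells (2.62 and 1.90 CPM) came next and overlapped each other. Cardiomyocytes, which were second for AGT, held 1 and 2 AGTR1 UMIs among 1090 and 1153 cells. Macrophages, which were first for ACE, held 0 AGTR1 UMIs in both organoids among 552 and 257 cells, which allowed levels of up to 0.353 and 0.655 CPM. The MYB, PTPRC and SPN-gated cells also held 0.

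AGTR2, the AT2 receptor, was close to undetected. The whole library of organoid 32.7 held 6 AGTR2 UMIs in 6 cells, and that of organoid 33.10 held 1. Of the 6, 3 lay in cells of several gates, 2 in stromal cells and 1 in the endoderm. The single UMI of organoid 33.10 lay in an endothelial cell. No order of lineages can be read from 7 UMIs.

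ATP6AP2 was read in every lineage, with 33460 UMIs in organoid 32.7 and 33645 in organoid 33.10. It was highest in macrophages (261.9 and 201.9 CPM) and stromal cells (220.3 and 197.2 CPM), whose values overlapped, and lowest in erythroid cells (97.3 and 94.8 CPM). The remaining 6 lineages had means between 116 and 170.9 CPM. Endoderm overlapped granulocytes, and granulocytes overlapped endothelial cells. A UMI of ATP6AP2 was found in 65.4% and 64.1% of all cells.

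**Figure D1:**
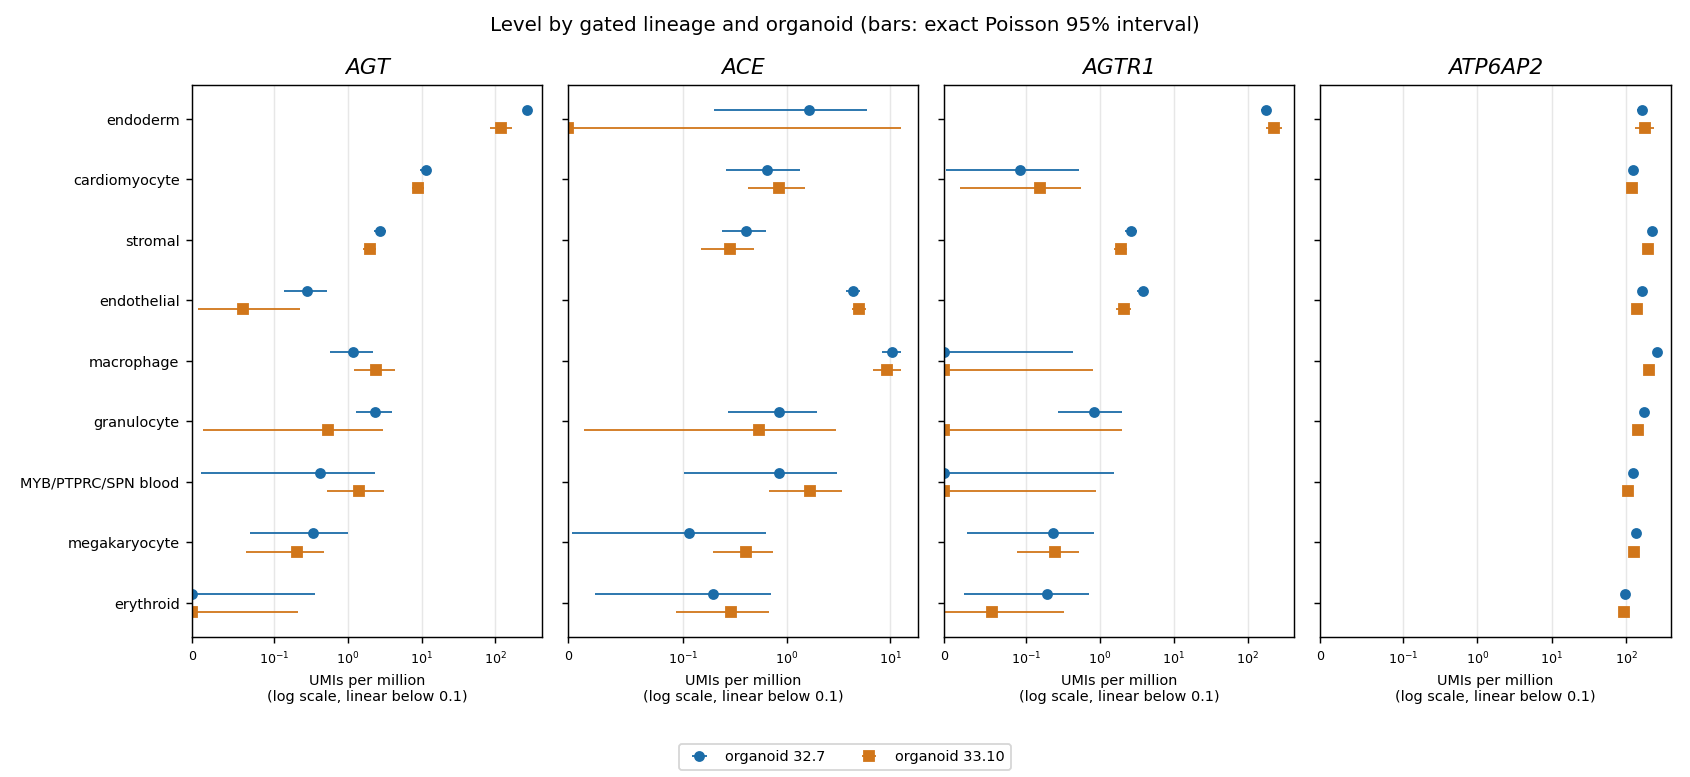
Level of AGT, ACE, AGTR1 and ATP6AP2 in 9 gated lineages, in CPM of the class on a log scale that is linear below 0.1; circles are organoid 32.7, squares organoid 33.10 and bars exact Poisson 95% intervals, which cover counting error only. AGT and AGTR1 peak in the endoderm and ACE in macrophages, followed by endothelial cells, while ATP6AP2 stays between 94.8 and 261.9 CPM in every lineage.

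A large part of the AGT and AGTR1 transcripts lay outside the single-lineage classes. Cells that passed several gates held 44.3% and 43.0% of the AGT UMIs, 42.1% and 47.0% of the AGTR1 UMIs and 25.6% and 22.6% of the ACE UMIs. Over all genes, these cells held 49394518 of 190521568 UMIs in organoid 32.7 and 66414825 of 231325401 in organoid 33.10. The ACE shares did not exceed the shares over all genes, nor did those of ATP6AP2, at 25.6% and 28.2%. Of the AGT UMIs, 32.5% and 5.46% lay in cells with the endoderm gate among several, and 11.8% and 37.6% in the other cells of several gates. For AGTR1 the shares were 28.7% and 20.3% against 13.4% and 26.7%. Among the other cells of organoid 33.10, a single cell held 34 of the 124 AGTR1 UMIs. The cells with the endoderm gate among their gates numbered 206 and 19, more than the 146 and 16 cells of the endoderm class itself. In them AGT stood at 137.4 and 42.3 CPM and AGTR1 at 94.0 and 147.4 CPM. A single cell held 78 of the 251 AGTR1 UMIs in organoid 32.7 and another 39 of the 94 in organoid 33.10, and without these cells AGTR1 was at 66.4 and 93.8 CPM. When every such cell was given to the gate with the highest sum, the endoderm grew to 271 and 27 cells. No doublet caller was run, and whether these barcodes were pairs of cells was not tested.

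**Figure D2:**
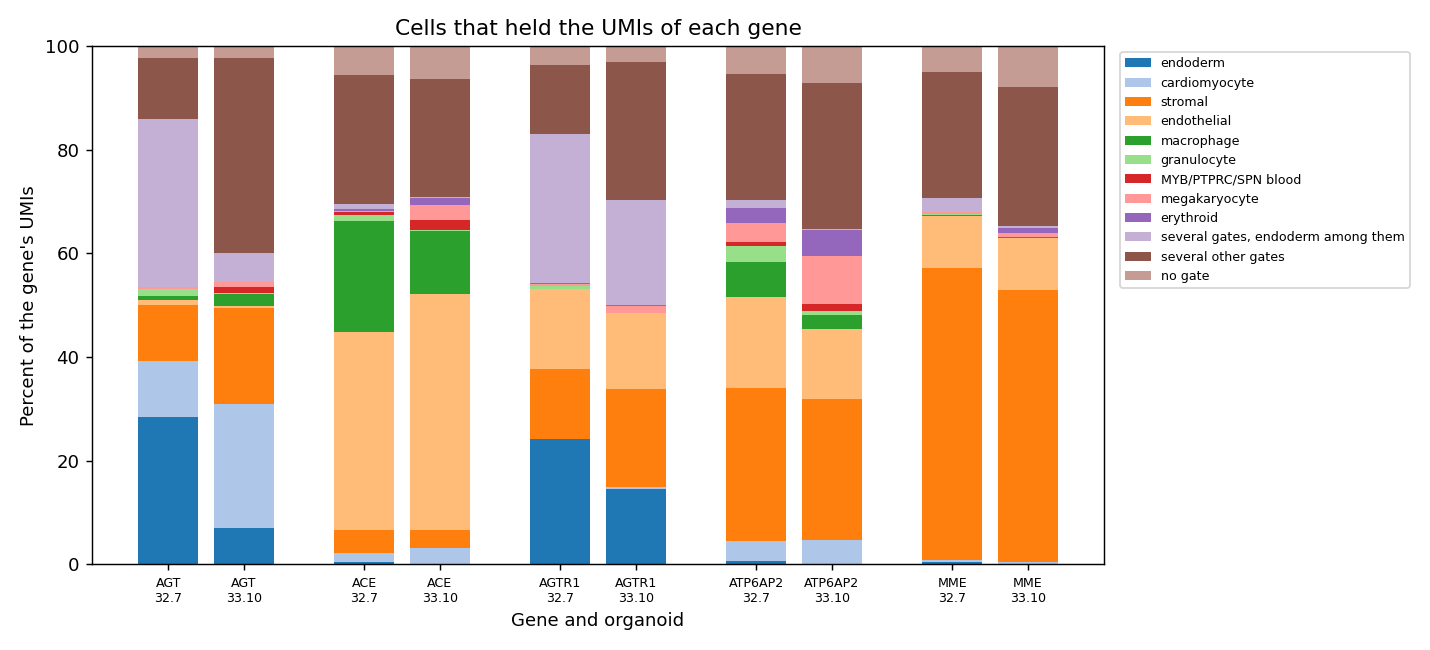
Percent of each gene's UMIs (y axis) by the class of the cell that held them, for AGT, ACE, AGTR1, ATP6AP2 and MME in each organoid. Stromal cells held 56.2% and 52.5% of the MME UMIs, whereas the UMIs of AGT and AGTR1 were divided among endoderm, stromal cells and cells of several gates, together with cardiomyocytes for AGT and endothelial cells for AGTR1.

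The order was also followed in single cells. A UMI of AGT was found in 37.7% of endoderm cells of organoid 32.7 (exact Clopper-Pearson 95% interval 29.8 to 46.1%) and in 9 of 16 in organoid 33.10, and in 10.0% and 9.37% of cardiomyocytes. For ACE the shares were 12.9% and 14.0% of macrophages and 4.68% and 4.53% of endothelial cells. For AGTR1 they were 17.1% and 56.2% of endoderm cells. In erythroid cells, taken as the background class, the shares at full depth were 0% for AGT, 0.406% and 0.346% for ACE, and 0.406% and 0.0864% for AGTR1, at median depths of 18348 and 12399 UMIs against 11607.5 and 13735 in macrophages.

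After every cell had been thinned to 3000 UMIs, which removes differences in depth and leaves out shallower cells, most shares fell and the order of these classes was kept. AGT was then found in 33.3% and 28.6% of endoderm cells and in 3.57% and 2.65% of cardiomyocytes. ACE was found in 3.89% and 2.52% of macrophages and in 1.43% and 1.32% of endothelial cells. These shares come from 1 random draw per cell. AGTR1 was found in 19.2% and 35.7% of endoderm cells. Thinning left out 47 of 146 and 2 of 16 endoderm cells and 64 of 552 and 19 of 257 macrophages.

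**Figure D3:**
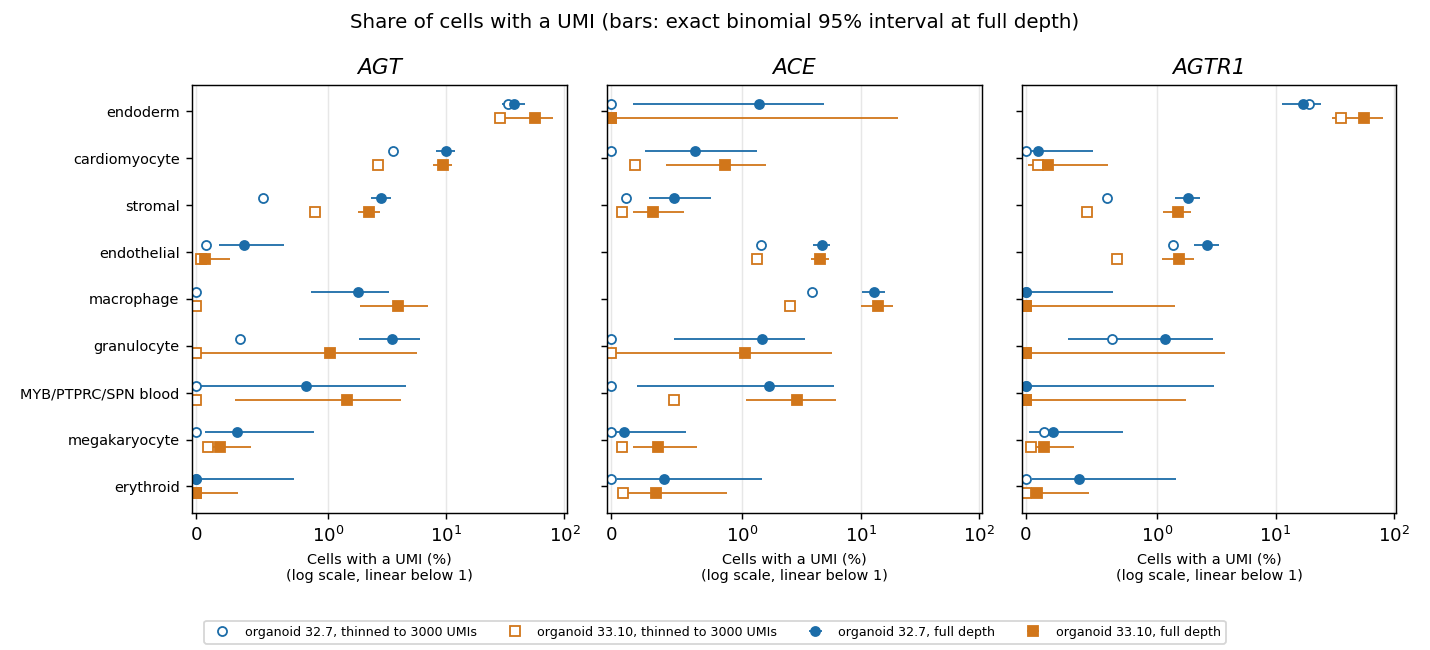
Share of cells with at least 1 UMI of AGT, ACE or AGTR1 in 9 gated lineages, in percent on a log scale that is linear below 1. Filled symbols are full depth with exact binomial 95% intervals and open symbols are cells thinned to 3000 UMIs; thinning lowers most shares, and endoderm stays first for AGT and AGTR1 and macrophages first for ACE.

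Precursor and receptor transcripts were in part found in the same cells. In the endoderm of organoid 32.7, 22 of the 25 cells with an AGTR1 UMI also had an AGT UMI, where 9.42 were expected from the separate shares. In organoid 33.10 it was 6 of 9, with 5.06 expected. In stromal cells both genes were seen in 10 and 12 cells, with 1.92 and 1.25 expected. Cells with either gene were deeper than their class in the endoderm of organoid 32.7 (medians of 13073.5 against 3528 UMIs) and in stromal cells (14607 against 10130 and 15549.5 against 10200 UMIs). In the endoderm of organoid 33.10 the medians were 14431 against 14392 UMIs. The part of depth in the joint detection was not tested. ACE and AGTR1 were seen together in 3 and 1 endothelial cells, with 3.37 and 1.95 expected.

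Arterial and venous classes were next taken from the 2737 and 2823 endothelial cells, and the remaining cells entered neither. Arterial cells were gated on SOX17, DLL4, CXCR4 and HEY1 without NR2F2 (1436 and 1309 cells). Venous cells were gated on NR2F2 with at most 2 UMIs of the arterial gate genes (317 and 339 cells). AGTR1 was at 0.90 and 0.454 CPM in arterial cells and at 12.4 and 7.39 CPM in venous cells. Both venous values exceeded both arterial values. AGTR1 was lower in arterial cells by a log2 fold change of -3.73 (SE 0.63, edgeR quasi-likelihood test, adjusted p = 0.00222, n = 2 organoids per class), and it was the only member of the 4 tested that passed. The members were picked with earlier results of these data in view, so their p-values here are not independent support. Over all 17379 genes tested, 23.2% were called in this comparison, 12% as higher in arterial and 11.2% as higher in venous cells.

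ACE was at 4.93 and 5.73 CPM in arterial cells and at 3.10 and 3.17 CPM in venous cells. The values did not overlap, but the difference of 0.85 on the log2 scale (SE 0.37) missed the threshold (edgeR adjusted p = 0.136). ATP6AP2 differed by -0.05 (SE 0.16, edgeR adjusted p = 0.876). AGT was represented by 5 and 1 UMIs in arterial cells and by 0 in venous cells, where up to 0.774 and 0.792 CPM would have gone unseen.

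Of 18 other genes of the pathway, 10 were tested between arterial and venous cells, of which 2 were higher in arterial and 2 in venous cells, and the median log2 fold change was -0.09 against 0.03 over all genes. MME, or neprilysin, a membrane peptidase that cleaves angiotensin peptides, was at 2.70 and 2.55 CPM in arterial and at 44.4 and 34.9 CPM in venous cells (log2 fold change -3.82, SE 0.27, edgeR adjusted p = 8.77e-06). ENPEP, the aminopeptidase that trims angiotensin II, was also higher in venous cells (-0.79, SE 0.18, edgeR adjusted p = 0.0101). NLN, neurolysin, and LNPEP, the receptor-like aminopeptidase that binds angiotensin IV, were higher in arterial cells with log2 fold changes of 0.88 and 0.80. In the fit with the organoid as a block 7 pathway genes were called in place of 4. CTSA and ATP6AP1 also passed as higher in arterial cells (edgeR adjusted p = 0.00678 and 0.0144), and PRCP as higher in venous cells (edgeR adjusted p = 0.0467). Of all 17379 genes, that fit called 5559 in place of 4032.

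By RUNX1, a factor needed when blood cells arise from endothelium, endothelial cells with counts between the limits were left out of a further comparison. It set 39 and 70 cells with at least 2 RUNX1 UMIs against 2529 and 2597 cells with 0. The check genes GFI1, MYB and SPN were not raised above the whole library in both organoids in the former, which are called here only by RUNX1. Endothelial cells that also passed the MYB, PTPRC and SPN gate had been kept apart beforehand, which limits MYB and SPN here. The libraries also include the blood cells. This check therefore cannot decide whether genes of emerging blood are raised in RUNX1-high cells. ACE was at 12.0 and 3.05 CPM in RUNX1-high cells and at 4.39 and 4.92 CPM in RUNX1-zero cells. The high value of organoid 32.7 came from 8 UMIs, 7 of them in 1 cell, without which it was 1.56 CPM, and the values of both classes overlapped (log2 fold change 0.40, SE 0.55, edgeR adjusted p = 0.789). AGTR1 was represented by 4 and 0 UMIs in RUNX1-high cells. None of the 3 members tested passed, while 3.65% of the 17628 genes tested did, 2.99% as higher in RUNX1-high cells and 0.658% as lower. In the fit with the organoid as a block, 1354 genes passed in place of 643, and the calls of the members were as before. Of 11 pathway genes tested, 1 passed: PRCP, a carboxypeptidase that inactivates angiotensin II, was lower in RUNX1-high cells (-0.76, SE 0.14, edgeR adjusted p = 0.0125). CPA3, a mast cell carboxypeptidase, was left out by the count filter. It was called as higher in RUNX1-high cells with no such filter and when cells of several gates were given to the highest. Its levels were 7.48 and 3.81 CPM there against 0 and 0.104 CPM, with a UMI in 5.13% and 1.43% of RUNX1-high cells.

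Further classes were taken from the 3729 and 3750 stromal cells, of which only a part entered the comparison. Some were gated on WT1, TBX18, TCF21, BNC1 and UPK3B with at most 1 UMI of LUM and DCN (681 and 1146 cells). Others were high in LUM and DCN without a UMI of the former genes (400 and 153 cells). The check genes of epicardium ALDH1A2 (8.71 and 5.18 CPM against 29.2 and 29.9 CPM in the libraries) and UPK1B (2.53 and 1.43 against 1.34 and 1.66 CPM) were not raised in both organoids in the first class. ITLN1 was raised there (3.44 and 0.595 against 0.572 and 0.156 CPM). The cells of the first class are therefore called by WT1 and TBX18, short for a gate of at least 3 UMIs from any of its 5 genes. TCF21 was the highest of these in the class (284.8 and 265 CPM). WT1 was at 105.1 and 113.8 CPM and TBX18 at 135.2 and 109.2 CPM, and neither was required. None of the 4 members tested passed between these classes, where 1821 of 17379 genes were called, 5.28% as higher in WT1 and TBX18-gated cells and 5.2% as higher in LUM-high cells. With the organoid as a block 3064 genes were called, and none of them was a member. AGTR1 stood at 2.63 and 2.80 CPM in WT1 and TBX18-gated cells. In LUM-high cells it was at 4.91 CPM in organoid 32.7 and 0 in organoid 33.10, whose 153 cells allowed up to 1.74 CPM. AGT was at 3.55 and 2.56 CPM in WT1 and TBX18-gated cells and at 3.10 and 1.16 CPM in LUM-high cells. ACE rested on at most 3 UMIs in any of these classes.

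Of the 10 pathway genes tested between the stromal classes, 1 was higher in each. MME was at 6.58 and 11.1 CPM in WT1 and TBX18-gated cells and at 64.6 and 94.7 CPM in LUM-high cells (log2 fold change -3.22, SE 0.25, edgeR adjusted p = 4.67e-05). NLN was higher in WT1 and TBX18-gated cells (0.71, SE 0.19, edgeR adjusted p = 0.0439), a call that was lost with DESeq2 (adjusted p = 0.0504) and when cells of several gates were given to the highest (edgeR adjusted p = 0.0779). With the organoid as a block LNPEP, at a log2 fold change of 0.56, was also called (edgeR adjusted p = 0.0233). A further stromal class was high in RGS5 and other genes of vessel-wall cells and could share cells with the classes above. Its median depth was 25326 and 28093 UMIs per cell, against 10130 and 10200 in the stromal cells. AGTR1 was at 2.81 and 4.01 CPM there and AGT at 3.97 and 2.86 CPM. Its check gene ACTA2 was raised in both organoids, at 306.4 and 218.4 CPM against 174.9 and 192.5 CPM in the libraries. So was KCNJ8, at 4.675 and 4.772 against 2.561 and 2.494 CPM. ABCC9, a check gene of pericytes, was raised in organoid 32.7 only, at 1.87 and 1.15 CPM against 1.00 and 1.24 CPM.

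**Figure D4:**
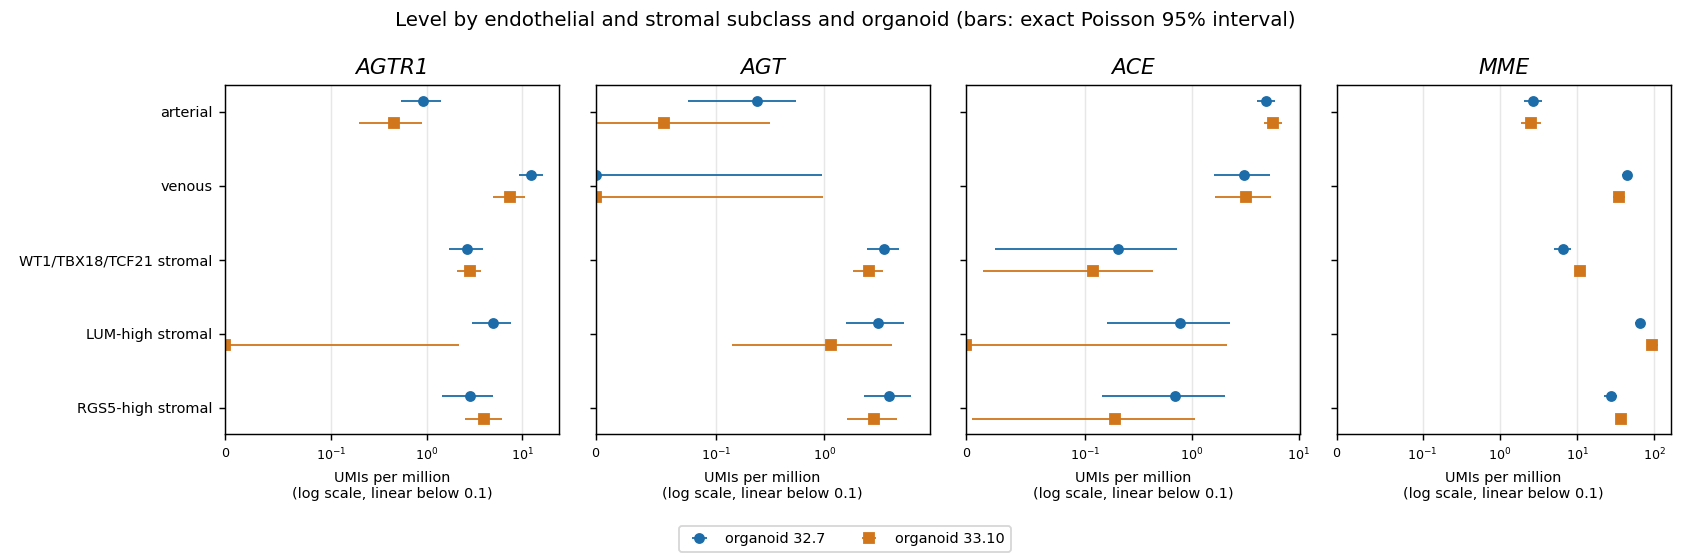
Level of AGTR1, AGT, ACE and MME in 2 endothelial and 3 stromal subclasses, in CPM on a log scale that is linear below 0.1. Bars are exact Poisson 95% intervals, circles are organoid 32.7 and squares organoid 33.10. The RGS5-high class can share cells with the other stromal subclasses. AGTR1 and MME are higher in venous than in arterial cells in both organoids. MME is also higher in LUM-high stromal cells than in those gated on any of WT1, TBX18, TCF21, BNC1 and UPK3B.

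AGTR1 and MME, which overlaps MME-AS1 on the other strand, were both higher in venous than in arterial cells. MME was chosen for this pairing after its values had been seen. In venous cells both were seen in 8 and 3 cells, with 7.95 and 3.44 expected from the separate shares. A UMI of MME was found in 28.4% and 21.5% of venous cells, and a UMI of AGTR1 in 8.83% and 4.72%. ACE and MME were seen together in 1 and 4 venous cells, with 3.41 and 2.37 expected.

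The 18 other genes of the pathway were compared between lineages. Between endothelial and stromal cells 14 were tested, of which 4 were higher in endothelial and 2 in stromal cells (22.7% and 28.9% of all 20075 genes were called in these directions, 51.6% together, and the medians were 0.39 for the list and -0.07 for all genes). PRCP which overlaps DDIAS on the other strand and 1 further gene on its own, was at 774.5 and 724.4 CPM in endothelial cells and at 73.1 and 66.0 CPM in stromal cells (log2 fold change 3.44, SE 0.17, edgeR adjusted p = 3.57e-09). The stromal side held MME, at 39.8 and 35.6 CPM against 8.90 and 9.59 CPM, and ENPEP, at 35.4 and 42.1 CPM against 12.7 and 15.1 CPM. On the endothelial side, the call of NLN was lost when 10% of the library profile was removed. With the organoid as a block LNPEP and CTSA were also called, as higher in endothelial cells (edgeR adjusted p = 0.0109 and 0.0127). Of all genes, 11702 were called in that fit in place of 10362.

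Between cardiomyocytes and stromal cells, 2 of 14 pathway genes were higher in cardiomyocytes and 4 in stromal cells (19.4% and 22.4% of all genes were called in these directions, 41.8% together, and the medians were -0.47 and -0.04). LNPEP, at 84.9 and 96.7 CPM in cardiomyocytes and 36.1 and 45.9 CPM in stromal cells, was higher in the former (1.24, SE 0.13, edgeR adjusted p = 6.20e-06). The other call, CPA3, a mast cell carboxypeptidase, rested on 1 cell, which held 36 of the 38 UMIs in cardiomyocytes of organoid 32.7. It was at 3.52 CPM there, at 0.186 CPM without that cell and at 0.0768 CPM in organoid 33.10, and with gates at 2 times the thresholds its sign turned (-0.42, edgeR adjusted p = 0.874). AGTRAP, which binds the AT1 receptor and promotes its uptake from the membrane, was lower in cardiomyocytes (-0.92, SE 0.20, edgeR adjusted p = 0.00174), with 21.7 and 19.7 CPM against 37.6 and 45.8 CPM. MME, NLN and CTSA, or cathepsin A, were lower as well; the CTSA call was lost when cells of several gates were given to the highest gate (edgeR adjusted p = 0.319), and so was that of CPA3 (edgeR adjusted p = 0.0604). With the organoid as a block ENPEP was also called, as lower in cardiomyocytes (edgeR adjusted p = 0.044), while 9703 of all genes were called in place of 8396.

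Between macrophages and endothelial cells, 4 of 14 pathway genes were higher in macrophages and 3 in endothelial cells (23% and 28.3% of all genes were called in these directions, 51.3% together, and the medians were 0.28 and -0.14). CTSA, a lysosomal carboxypeptidase, was at 66.4 and 65.5 CPM in macrophages and 34.2 and 31.6 CPM in endothelial cells (1.14, SE 0.18, edgeR adjusted p = 0.000111). Megakaryocytes, which were outside this comparison, held more CTSA than either, at 132.4 and 123.6 CPM. THOP1 and PREP, peptidases that can cut angiotensin I to shorter peptides, were also higher in macrophages, by 0.63 and 0.42 on the log2 scale. ANPEP, aminopeptidase N, was called too, with 3.06 and 0.436 CPM in macrophages and 0.504 and 0.676 CPM in endothelial cells. Of its 26 UMIs in macrophages of organoid 32.7, 16 lay in 1 cell, without which the level was 1.18 CPM. Organoid 33.10 alone gave a difference of -0.42, and the call was lost with DESeq2 (adjusted p = 0.0926), with gates at 2 times the thresholds (edgeR adjusted p = 0.0808) and with cells of several gates given to the highest (edgeR adjusted p = 0.21). PRCP, MME and ENPEP were higher in endothelial cells. LNPEP was also called as higher in macrophages with the organoid as a block (edgeR adjusted p = 0.0259) and with DESeq2 (adjusted p = 0.0294). The block called 11144 of all genes in place of 10304.

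Several genes of the alternative branches were at or near 0. MAS1, the receptor of angiotensin 1-7, did not exceed 0.0928 CPM in any lineage of either organoid. MRGPRD was at 0 in every lineage, and CMA1, the mast cell chymase that can replace ACE, held 1 UMI in each organoid, in an endothelial cell of organoid 32.7 and in organoid 33.10 in 1 of the 21 cells that passed the endothelial and the MYB, PTPRC and SPN gates. CTSG, a protease of granulocytes and mast cells, was highest in granulocytes (9.70 and 2.71 CPM). CPA3 was at 14.7 and 38.0 CPM in granulocytes and at 9.69 and 25.4 CPM in the MYB, PTPRC and SPN-gated cells, and these values overlapped. In the 15 and 21 cells that passed the endothelial gate as well it was at 17.1 and 0 CPM.

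**Figure D5:**
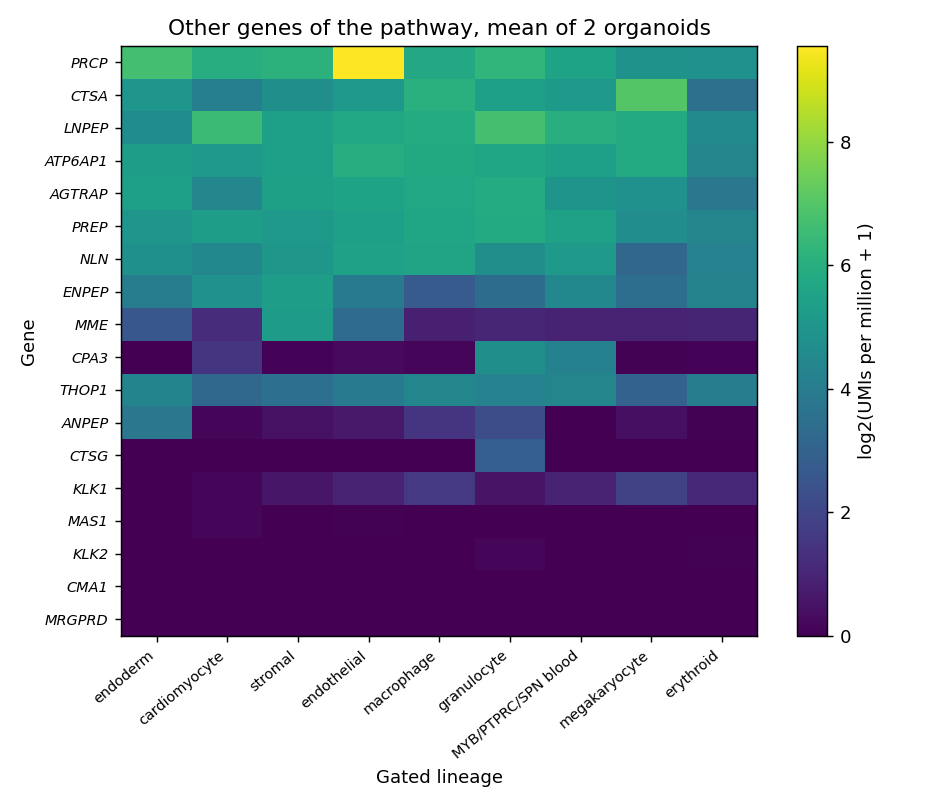
Mean level over 2 organoids of 18 other genes of the pathway (rows) in 9 gated lineages (columns), coloured by log2(CPM + 1). PRCP stands out in endothelial cells, MME in stromal cells and CTSA in megakaryocytes, while MAS1, KLK2, CMA1 and MRGPRD are near 0 everywhere.

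The genes whose levels followed each member most closely were ranked by the lower of both organoids' Pearson correlations of log2(CPM + 1) over 12 gated classes, gate genes left out. These are descriptions over few classes that share their libraries, and 4 of the classes are subclasses of others. The endoderm, with its 16 cells in organoid 33.10, was not among them, so the ranking for AGT and AGTR1 followed their lower levels. For AGT the 5 closest were TPD52, TIPARP, JPH2, FABP3 and AC107294.2, with r between 0.889 and 0.936; JPH2 and FABP3 are genes of heart muscle. For ACE they were NAA20, GIMAP6, WASHC2A, GIMAP4 and GIMAP8 (r from 0.892 to 0.947), of which the GIMAP genes encode small GTPases of immune and endothelial cells. For AGTR1 they were FGF23, CDH12, GBP5, LRRC55 and HSPA12B (0.868 to 0.986). For ATP6AP2 they were GABARAP, MIR503HG, CD83, ARSA and STAT2 (0.881 and above), and ARSA encodes a lysosomal enzyme. For AGTR2, read from a few UMIs, the lower of both correlations did not exceed 0.367, that of SEMA5B.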

How the data were processed

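Each BG-HFO gave 1 single-cell library (Chromium 3′ v3.1). The deposited matrices hold UMI counts per gene and barcode, which the authors made with Cell Ranger 7.0.0 against GRCh38, with intronic reads included. Their later steps (depth equalisation and removal of free RNA) are not in these counts. The members and lists were chosen with earlier results of these data known.

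Cells were gated on raw UMIs of lineage genes (a minimum of 4 to 20 UMIs from 2 or 3 genes, by lineage). Endothelial and stromal subclasses were gated within their lineage, with a minimum of 2 to 20 UMIs from 1 or 2 genes. The thresholds were set from the gate genes' own distributions, after the matrices had been seen and without the members' UMIs. UMIs were summed per class and organoid and given in CPM. The exact Poisson and Clopper-Pearson 95% intervals (scipy 1.17.1) cover counting error only. Where 0 was counted, 3 counts set the upper limit. Sums were compared with edgeR 4.0.16 (TMM, filterByExpr, quasi-likelihood test, class as the only term, Benjamini-Hochberg adjustment over all genes, threshold 0.05). Classes needed at least 20 cells per organoid with the main gates, which left the endoderm out. The limit was not applied again in the alternatives. With gates at 2 times the UMI thresholds the RUNX1-high class held 13 cells in organoid 32.7 and was still fitted. The lineage fit shared 1 estimate of spread over 8 lineages. Likewise, the arterial, venous, WT1 and TBX18-gated and LUM-high classes were in 1 fit that shared its spread over these 4 classes. The RUNX1 classes had a fit of their own. The fits were tested on 1 set of simulated counts per comparison, with 100 genes changed by 1 and 100 by 2 on the log2 scale. The share of false calls there was 5.51 to 9.6%, above the threshold in every comparison, so that calls near the threshold are to be read with care. Fewer genes were changed there than were called in the data, so this share need not carry over. Of the 100 genes changed by 1, only 39 to 54 were recovered, so differences of that size can be missed. Alternatives were DESeq2 1.42.0, the organoid as a block, other gates, cell and count filters, removal of 10% of the library profile, and 1 organoid at a time. Levels without the cell that held the most UMIs of a gene were added after the data had been seen. All classes of an organoid came from the same dissociation, which pairs them by origin. The correlation of their deviations lay between 0.00192 and 0.373 over 28 pairs of lineages. It lay between 0.106 and 0.299 over 6 pairs of endothelial and stromal subclasses, and was 0.13 between the RUNX1 classes. Both organoids were grown from 1 line, so p-values measure the spread between 2 organoids only. Named genes were the members, 18 pathway genes, gate and check genes, and the 5 genes most like each member (at least 5 CPM in a class of each organoid). Other items of the pathway list are not reported here, and the 18 genes were MME, ENPEP, ANPEP, PRCP, PREP, NLN, THOP1, LNPEP, CTSA, CTSG, CPA3, CMA1, KLK1, KLK2, MAS1, MRGPRD, AGTRAP and ATP6AP1. Coordinates and overlaps are from GENCODE v44. The reference that the authors counted against may hold other spans, and whether the overlaps are the same there was not tested.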

Additional observations from a re-analysis of the deposited data

Results flagged for a closer look

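Some cells entered no comparison, and their values stood above the limit that a count of 0 allows. In cells of no gate, AGT was at 2.11 CPM in organoid 32.7 and 0.62 CPM in organoid 33.10, ACE at 1.87 and 1.19 CPM, and AGTR1 at 2.60 and 0.723 CPM. In cells of several gates, AGT was at 10.1 and 3.21 CPM, ACE at 2.13 and 1.22 CPM, and AGTR1 at 7.45 and 3.28 CPM. The limits for a count of 0 ranged from 0.0452 to 0.243 CPM in these cells.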

How the results depend on the processing

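The calls for AGTR1 between arterial and venous cells, for MME between stromal classes and for PRCP between RUNX1 classes held in each of the 7 alternative fits. All of these fits reuse the same 2 organoids, and the genes were picked with earlier results of these data in view. With 1 organoid at a time, which allows no test, ANPEP, macrophages against endothelial cells, ranged from -0.42 to 2.48 (without organoid 32.7 its sign turned). ACE between RUNX1 classes ranged from -0.66 to 1.36. AGTR1 between RUNX1 classes and AGTR1 and ACE between stromal classes also differed in sign between the organoids, with 0 UMIs in a class of organoid 33.10, so that no fold is given. Some differences changed sign: ATP6AP2 between arterial and venous cells with no filter on low counts (0.035), AGT between WT1 and TBX18-gated and LUM-high cells (-0.33) and ACE between RUNX1 classes (-0.29) with gates at 2 times the UMI thresholds, AGTR1 between the stromal classes when cells of several gates went to the highest (0.23), and, alone among these in having passed the test, CPA3 between cardiomyocytes and stromal cells with gates at 2 times the thresholds (-0.42). The cause was not tested. The number of genes called between stromal classes, 1821, was 3064 with the organoid as a replicate block and 2935 with no filter on low counts. Between RUNX1 classes, 643 became 1526 with gates at 2 times the thresholds, 2014 with cells of several gates to the highest, 1354 with the replicate block and 1393 with no filter. The replicate block changed no call of a member in these subclass comparisons and lost no call of a pathway gene. It added 8 calls of pathway genes, among them 3 between arterial and venous cells, where 7 were called in place of 4. The calls over all genes rose with the block in every comparison, from 4032 to 5559 between arterial and venous cells. ACE in macrophages, 9.87 CPM, was 10.9 CPM with gates at 2 times the thresholds, 10.8 CPM with 10% of the library profile removed and 11.4 CPM as a mean over cells. AGT and AGTR1 in the endoderm rested on 16 cells in organoid 33.10, and low levels of ACE and AGTR2 on a few UMIs, so that orders among the lower lineages could not be resolved at this depth.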
